A study of Schizosaccharomyces pombe with 9 samples.

Results

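Transcript levels of Schizosaccharomyces pombe, the fission yeast, were measured after oligo(dT) selection in whole cells of the genotype htb1-E112K (E112K, 3 libraries), where H2B has a lysine in place of a glutamate, and of wild type (WT, 3 libraries). These 6 of the 9 libraries of the series were chosen by their labels. The other 3 libraries carry E112K together with clr6-1, an allele of the histone deacetylase gene clr6. They entered the count filter, the scaling and the estimate of spread behind the tests. Otherwise they are used only where a gene's level in them is set beside the other groups. The labels used here give no growth condition, mating type or auxotrophic marker, and do not say how the htb1 allele was made or whether a group is 1 clone. Of 5212 genes listed in the deposited tables, 5119 had enough counts to be tested, with 16469576 to 19217624 counts in the E112K libraries and 17795867 to 19597394 in the WT libraries. Levels are given as CPM, the customary count scaled to library size and composition, and errors are SDs over the 3 libraries of a group.

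H2B pairs with H2A in the nucleosome, and the C-terminal part of H2B lies at the surface where chromatin proteins dock. In human H2B the glutamate of the matching stretch belongs to the acidic patch, a charged surface shared by H2A and H2B. Fission yeast has a single H2B gene, htb1, next to the H2A gene hta1, and a second H2A gene, hta2. The reference coding sequence around the substituted glutamate is shown because it defines the mutant group, with the codon of that glutamate in capitals; the numbering of E112K leaves out the initiator methionine.
htb1: cacgccgttaccGAAggtaccaaatcc
The sequence is that of the RefSeq reference (ASM294v3, chromosome III) and was not read from the libraries.

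Transcripts of htb1 itself were more abundant in the mutant. The E112K libraries had 5248, 5151 and 4995 CPM of htb1, against 1645, 1643 and 1719 CPM in the WT libraries. The groups did not overlap, and htb1 rose 3.07-fold (log2 fold change 1.62 ± 0.0391 SE, edgeR adjusted p = 9.34e-13). The H2A genes moved less and in opposite directions. Transcripts of hta1 were at 408, 420 and 384 CPM in E112K, against 363, 367 and 359 CPM in WT, a rise of 0.15 on the log2 scale (edgeR adjusted p = 0.00136). Those of hta2 stood at 768, 725 and 748 CPM in E112K, against 927, 947 and 892 CPM in WT, and fell by 0.30 on the log2 scale (edgeR adjusted p = 3.64e-06). A gene total cannot tell mutant from wild-type htb1 transcripts, so it is no check of the allele, and the number of htb1 copies was not tested. The annotated htb1 gene and other genes named below overlap another annotated gene. With no counting strand stated, their reads cannot be told from those of the partner. Among these genes are clr6, ssa2, hem13, SPCC553.10, tps1, aha1, hsf1, rpn11, srx1, gpx1, trx2, rds1, dak2, slc1, cut6, fas2, ofd1, bgs1, chs2, tgp1, gde1, spn6, map3, spk1, grt1, fah1, gal10, brl2, laf1, tra1, tra2, mug108, SPBC18A7.01, dam1, SPBC1683.06c, rpa49, rpa34, mal1, csr101, rga3 and SPBC18A7.02c.

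Across the genome 3914 of 5119 genes passed the test at an adjusted p under 0.05, which is 76.5% of those tested. Of these 1923 were higher in E112K (37.6%) and 1991 lower (38.9%). For 3991 genes (78%) every E112K library lay on the same side of every WT library. Of the genes called higher 779, and of those called lower 1022, changed less than 1.25-fold. Large changes were mostly rises. At least 2-fold rises numbered 367 (7.17% of genes) and at least 2-fold falls 108 (2.11%); 68 genes called higher and 4 called lower changed 10-fold or more. Many of the large rises were of weakly expressed genes. With the tested genes split into 3 classes by the deposited FPKM, a level per length and depth, 231 of 1706 in the lowest class were at least 2-fold higher and 37 at least 2-fold lower. In the top class these numbers were 85 and 50 of 1707. In bulk cultures a larger share of cells in a state and more RNA per cell cannot be told apart.

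**Figure D1:**
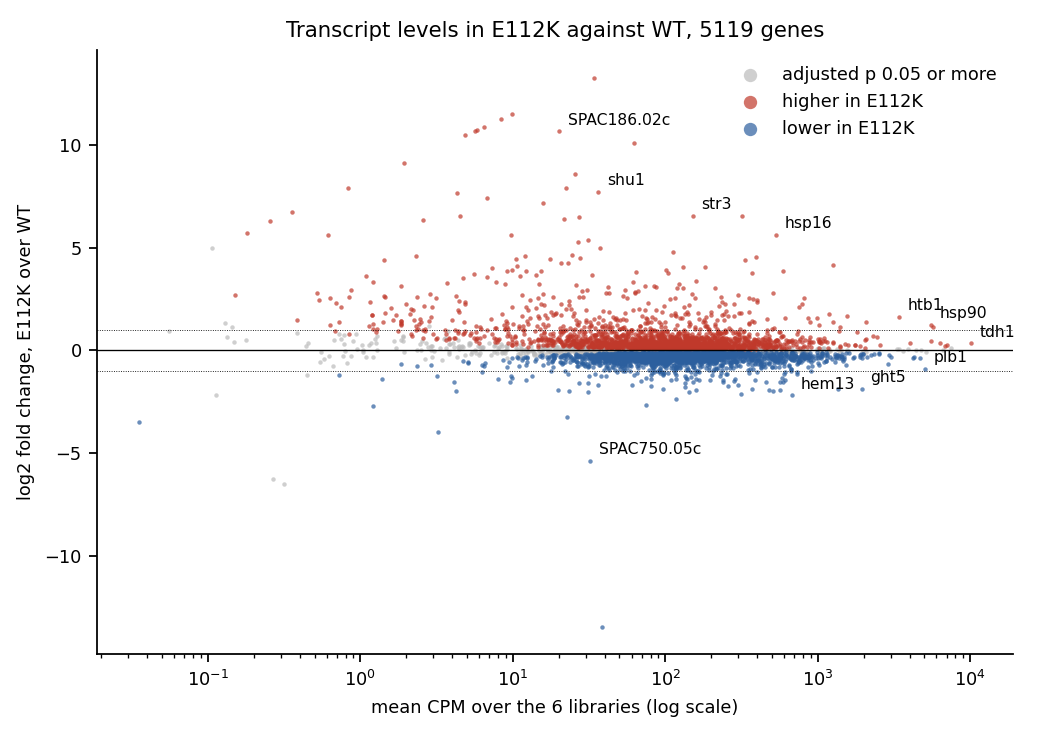
Mean CPM over the 6 libraries (x, log scale) against the log2 fold change of E112K over WT (y) for each tested gene, with genes at an adjusted p under 0.05 in red (1923 higher in E112K) and blue (1991 lower). Dotted lines mark 2-fold; the fold change of a gene with no counts in one group depends on the prior count and is not a measured ratio.

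The 2517 genes with a higher mean in E112K were together 140097 CPM above WT, and 99 of them made up 50% of that gain. The 10 genes that gained most CPM were hsp90, ssa2, htb1, tdh1, hsp9, cpy1, pgk1, ubi4, tef103 and adh1. They encode abundant chaperones, H2B, enzymes of glycolysis and fermentation, vacuolar carboxypeptidase Y, polyubiquitin and elongation factor EF-1 alpha, and together they held 17.8% of the gain. Losses were spread over more genes, with 184 of 2598 making up 50%. The largest losses were of plb1 (phospholipase B), ght5 (hexose transporter), vht1 (biotin transporter), SPCC1281.06c (acyl-CoA desaturase), met26, sks2, pma1, hem13, eca39 and SPCC553.10.

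Cells answer heat, oxidants and starvation in this yeast largely through the MAP kinase Sty1, which acts on the transcription factor Atf1 and its partner Pcr1, and through the heat shock factor Hsf1. Of 18 genes of the Sty1 pathway 17 rose and 0 fell, with a median of 1.33-fold, where the median log2 fold change over all tested genes was -0.01. The largest change in the list was of the transcription factor gene. The E112K libraries had 200, 223 and 198 CPM of atf1, against 81.9, 86.3 and 86.2 CPM in WT. This was a 2.44-fold rise with no overlap (edgeR adjusted p = 2.73e-11). Its partner gene pcr1 rose 1.81-fold, the MAP kinase gene sty1 1.45-fold, the downstream kinase gene srk1 1.33-fold and the MAP kinase kinase gene wis1 1.19-fold. Of 13 stress protectant genes, which include those of trehalose and glycerol enzymes, 10 rose and 2 fell, with a median of 3.35-fold. The glycerol-3-phosphate dehydrogenase gene gpd1 was at 1892, 1905 and 1714 CPM in E112K, against 512, 527 and 563 CPM in WT. It rose 3.44-fold (edgeR adjusted p = 4.76e-12), while its paralog gpd2 fell by 0.29 on the log2 scale. The trehalose-6-phosphate synthase gene tps1 rose 4.25-fold, the trehalase gene ntp1, which acts the other way, rose 5.15-fold, and rrg1, annotated as a predicted protein-lysine methyltransferase, fell by 0.77 on the log2 scale.

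Of 30 chaperone genes 24 rose and 5 fell, and their share of all counts was 4.03 to 4.22% in E112K and 2.48 to 2.60% in WT. The small heat-shock gene hsp16 had 1105, 1018 and 990 CPM in E112K libraries, against 18.6, 21.3 and 23.1 CPM in WT libraries. All E112K libraries were far above all WT libraries, a 49.5-fold rise (edgeR adjusted p = 5.52e-15). For the Hsp70 gene ssa1 the rise was 14.6-fold, and for the disaggregase gene hsp104 it was 5.83-fold. The abundant hsp90 stood at 7612, 8063 and 7556 CPM in E112K, against 3075, 3269 and 3422 CPM in WT (2.38-fold). Its co-chaperone genes sti1, wos2 and aha1 rose 2.96-, 2.61- and 2.66-fold. The ribosome-associated Hsp70 gene sks2 went the other way and fell by 0.35 on the log2 scale, and transcripts of hsf1 itself rose by 0.27 on that scale. Ubiquitin and proteolysis genes rose too: the polyubiquitin gene ubi4 rose 3.14-fold, and 26 of 35 proteasome genes rose, rpn11 most at 1.45-fold, while 3 fell. Autophagy and vacuolar protease genes had 18 of 29 higher and 3 lower, led by cpy1 (2.57-fold) and the vacuolar protease gene psp3 (1.92-fold).

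Genes of the antioxidant defence were split, with 14 of 21 higher and 5 lower. The gene of their oxidant-sensing factor, pap1, was not called (edgeR adjusted p = 0.897). Sulfiredoxin, which restores oxidised peroxiredoxin, is encoded by srx1, which was at 120, 107 and 107 CPM in E112K, against 11.2, 12.8 and 9.30 CPM in WT (edgeR adjusted p = 3.46e-12). The glutathione peroxidase gene gpx1 rose 3.57-fold, the superoxide dismutase gene sod1 3.15-fold, the catalase gene ctt1 3.07-fold and the peroxiredoxin gene tpx1 1.91-fold. Transcripts of trx2, the mitochondrial thioredoxin gene, fell by 1.08 on the log2 scale. All 8 DJ-1 and Hsp31 family genes, whose products include glyoxalases that detoxify methylglyoxal, rose. The most changed was hsp3101, with 116, 121 and 111 CPM in E112K, against 15.0 to 16.7 CPM in WT.

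**Figure D2:**
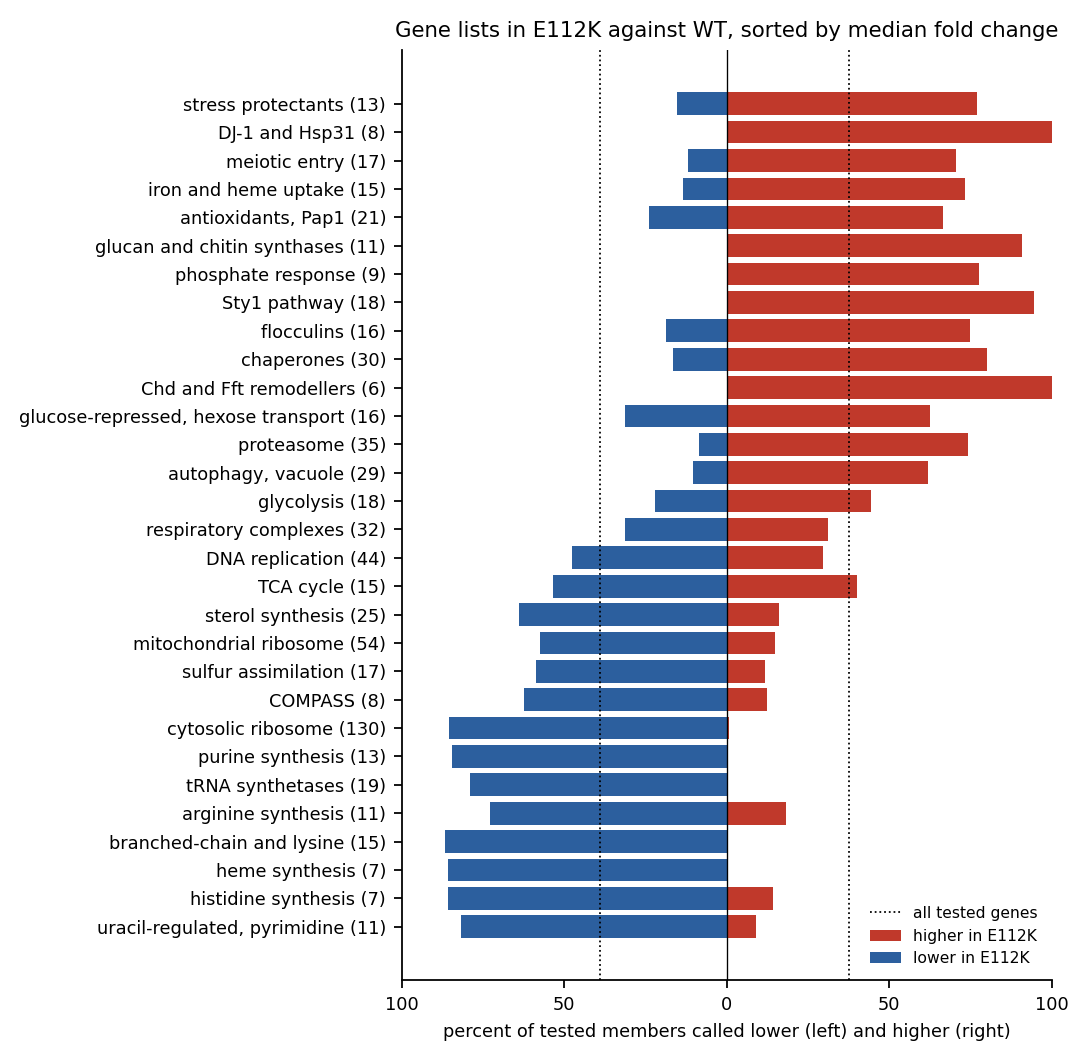
Percent of the tested members of 30 gene lists that were called higher (red, right) or lower (blue, left) in E112K against WT, with the number tested in brackets; the 11 pyrimidine genes include ura4, with 0 counts in all 6 libraries. Dotted lines give the same shares over all tested genes (37.6% higher, 38.9% lower); lists of stress, iron uptake and wall synthesis genes lie above the first, and lists of biosynthesis and ribosome genes above the second.

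Promoters of the genes that rose were read for the motifs of these pathways in the 300 bases before the annotated gene start, on both strands, for 5026 tested genes. The Atf1-type core TGACGT was found before 61 of 327 genes that were at least 2-fold higher, 18.7% (95% exact binomial interval 14.6 to 23.3%). The share was 9.43% of 106 genes at least 2-fold lower (interval 4.62 to 16.7%) and 6.05% of all 5026. The strict heat shock element of 3 alternating repeats without mismatch stood before 3 of the 327 and 25 of all promoters; hsp16 had none in this window. The HomolD box, a core element of ribosomal protein promoters, was found before 3 of the 327 genes (0.917%) and 2.67% of all. For GATAA, the core of the site of the iron repressor Fep1, the shares were 60.2% among genes at least 2-fold higher and 60.5% of all, and it stood before 12 of 15 genes of iron and heme uptake and its control (80%). CCAAT was in 46.8% and 40.9%, and ACGCGT, the site of the G1/S factor MBF, in 2.45% and 2.89%. None of these motifs contains another. By list, TGACGT stood before 3 of 13 stress protectant, 4 of 18 Sty1 pathway and 2 of 30 chaperone genes. The heat shock element stood before 2 of the 30 chaperone genes. The promoters of the stress protectant genes that hold TGACGT are shown with that of atf1 itself, and with that of ssa1 for the heat shock element. Capitals mark the matches.
ntp1: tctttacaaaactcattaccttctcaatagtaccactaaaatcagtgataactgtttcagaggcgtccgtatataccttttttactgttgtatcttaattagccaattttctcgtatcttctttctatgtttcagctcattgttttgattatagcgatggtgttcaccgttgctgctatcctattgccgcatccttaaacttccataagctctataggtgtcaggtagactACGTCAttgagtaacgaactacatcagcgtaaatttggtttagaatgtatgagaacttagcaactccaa
rds1: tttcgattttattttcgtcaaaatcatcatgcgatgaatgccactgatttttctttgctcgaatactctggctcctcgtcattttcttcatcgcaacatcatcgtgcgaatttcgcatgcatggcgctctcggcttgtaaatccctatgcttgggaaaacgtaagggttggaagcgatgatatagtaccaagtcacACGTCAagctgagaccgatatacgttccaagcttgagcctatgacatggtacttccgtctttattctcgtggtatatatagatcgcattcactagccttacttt
gpd1: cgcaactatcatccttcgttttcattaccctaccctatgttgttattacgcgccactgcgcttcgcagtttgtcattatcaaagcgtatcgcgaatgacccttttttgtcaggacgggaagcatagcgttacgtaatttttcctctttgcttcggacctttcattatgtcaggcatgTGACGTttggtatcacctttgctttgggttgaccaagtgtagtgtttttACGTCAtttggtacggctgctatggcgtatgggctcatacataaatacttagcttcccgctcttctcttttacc
atf1: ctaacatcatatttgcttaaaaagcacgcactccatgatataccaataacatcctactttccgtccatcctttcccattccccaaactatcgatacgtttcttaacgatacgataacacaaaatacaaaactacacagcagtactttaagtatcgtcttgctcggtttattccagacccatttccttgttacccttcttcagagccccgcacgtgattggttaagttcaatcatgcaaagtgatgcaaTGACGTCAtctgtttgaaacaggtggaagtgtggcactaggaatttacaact
ssa1: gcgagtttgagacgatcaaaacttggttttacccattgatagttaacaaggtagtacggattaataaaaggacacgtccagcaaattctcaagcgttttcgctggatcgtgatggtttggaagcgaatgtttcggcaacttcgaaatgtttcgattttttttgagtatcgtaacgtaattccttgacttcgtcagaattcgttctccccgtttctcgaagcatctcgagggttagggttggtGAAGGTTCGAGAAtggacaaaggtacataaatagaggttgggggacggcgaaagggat
These are RefSeq sequences of ASM294v3 (chromosome I for rds1 and ssa1, II for ntp1, gpd1 and atf1; minus strand for ssa1, plus for the others), each written towards the gene. The matches nearest the gene begin 69 bases before the start of ntp1, 104 before rds1, 74 before gpd1 and 50 before atf1, where both strands match in 1 palindrome; the element of ssa1 begins 58 bases before its start. A match describes these letters and is not a measured binding site.

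Iron enters this yeast through a ferric reductase, an oxidase and permease pair and siderophore and heme transporters, whose genes are held down by the repressor Fep1. Php4 holds down genes of proteins that use iron. Of 15 genes of iron and heme uptake, storage and control 11 rose, php4 among them, and 2 fell, with a median of 2.06-fold. The falls were of fep1 and of the storage gene pcl1. The heme receptor gene shu1 had 82.8, 70.1 and 64.5 CPM in E112K, against 0.301, 0.384 and 0.332 CPM in WT. No library of one group came near the other, and the rise was 210-fold (edgeR adjusted p = 7.75e-13). Transcripts of str3, annotated as a siderophore-iron transporter, reached 332, 285 and 278 CPM in E112K, against 3.37, 2.30 and 3.82 CPM in WT (94.0-fold). The reductase gene frp1 rose 13.4-fold, the oxidase gene fio1 7.76-fold, the siderophore transporter gene str1 6.86-fold and the permease gene fip1 6.08-fold. For frp1, fio1, fip1 and str1 the first E112K library was the highest of the 3: fip1 was at 493, 340 and 360 CPM there, against 68.1, 66.3 and 61.5 CPM in WT.

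The regulators moved against each other. The Php4 gene was at 133, 133 and 135 CPM in E112K, against 65.6, 73.4 and 70.7 CPM in WT, and php4 rose 1.91-fold (edgeR adjusted p = 2.88e-10). The Fep1 gene had 69.4, 94.1 and 90.3 CPM in E112K, against 120, 116 and 118 CPM in WT, and fep1 fell by 0.48 on the log2 scale (edgeR adjusted p = 0.000199). Some genes of iron storage and iron use were among the falls. The vacuolar iron transporter gene pcl1 fell by 1.25 on the log2 scale, and the succinate dehydrogenase genes sdh1, sdh2 and sdh3 by 1.05, 1.46 and 1.11. The iron-sulfur subunit gene sdh2 was at 148, 238 and 231 CPM in E112K, against 566, 551 and 585 CPM in WT. The whole list of tricarboxylic acid cycle genes, which holds these 3, had 8 of 15 lower and 6 higher. Nuclear genes of respiratory complexes III to V and cytochrome c had 10 of 32 lower and 10 higher. Of 7 heme synthesis genes tested 6 fell and 0 rose. The steepest fall was of hem13, with 248, 235 and 244 CPM in E112K, against 1098, 1105 and 1118 CPM in WT, lower by a log2 change of -2.19 (edgeR adjusted p = 1.07e-14). The ferrochelatase gene hem15 fell by 0.80 on the log2 scale.

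Glucose reaches the cell through hexose transporters, of which Ght5 is the main high-affinity one, and is sensed through the G protein subunit Gpa2, cAMP and protein kinase A, which represses genes of other carbon sources. The E112K libraries had 1196, 617 and 703 CPM of ght5, against 3021, 2999 and 3090 CPM in the WT libraries. The groups did not overlap, although the first E112K library stood well above the other two, and ght5 fell by 1.86 ± 0.179 SE on the log2 scale (edgeR adjusted p = 7.24e-07). Its relatives diverged. Transcripts of ght7 rose to 72.7 ± 1.93 CPM in E112K, against 2.31 ± 0.48 CPM in WT (31.6-fold), and those of ght3 rose 12.8-fold, while ght2, ght6 and ght8 fell by 0.40, 0.40 and 0.32 on the log2 scale and ght4 was not called (log2 change 0.08). In the whole list of glucose-repressed and hexose transport genes, 10 of 16 rose and 5 fell. The glycerol dehydrogenase gene gld1 and the dihydroxyacetone kinase gene dak2 rose 4.72- and 5.68-fold, fructose-1,6-bisphosphatase fbp1 rose 1.76-fold and invertase inv1 rose with a log2 change of 0.58. Of 12 genes of the cAMP pathway, hsp90 among them, 7 rose and 3 fell: gpa2 fell by 1.46 on the log2 scale, and cgs1, the gene of the inhibitory kinase subunit, rose 3.03-fold. Among 18 glycolysis and fermentation genes 8 rose and 4 fell. The largest changes were of isoenzyme genes, with eno102 up 23.2-fold, gpd3 up 5.80-fold and adh4 down by 1.68 on the log2 scale, whereas tdh1, pgk1 and adh1 rose 1.27-, 1.39- and 1.20-fold.

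Biosynthetic genes fell as groups. Of 15 genes of branched-chain amino acid and lysine synthesis 13 fell and 0 rose, with a median log2 fold change of -0.52. Histidine synthesis had 6 of 7 lower, arginine synthesis 8 of 11, and purine synthesis 11 of 13 with 0 higher. The argininosuccinate synthase gene arg12 was at 375, 373 and 368 CPM in E112K, against 836, 796 and 863 CPM in WT, lower by a log2 change of -1.16 (edgeR adjusted p = 6.72e-12). The branched-chain aminotransferase gene eca39 had 1198, 1170 and 1150 CPM in E112K, against 1873, 1844 and 1975 CPM in WT (log2 change -0.69). Sulfur assimilation and methionine genes had 10 of 17 lower and 2 higher, led by the homocysteine synthase gene met17 at 59.6 ± 5.47 CPM in E112K, against 207 ± 4.28 CPM in WT. Aminoacyl-tRNA synthetase genes, which charge tRNAs with these amino acids, had 15 of 19 lower and 0 higher, for example ala1 by 0.82 on the log2 scale. The cytosolic ribosomal protein genes had 111 of 130 lower and 1 higher, and their share of all counts was 7.78 to 8.11% in E112K and 10.1 to 10.3% in WT. The mitochondrial ribosomal protein genes had 31 of 54 lower and 8 higher.

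Pyrimidine genes behaved likewise, with 9 of the 10 that had counts in these libraries lower and 1 higher. The uracil-regulated genes urg1, urg2 and urg3 lie next to each other with SPAC1002.16c, and these 4 neighbours formed the only run of 3 or more adjacent tested genes that all fell at least 2-fold. Transcripts of urg1 had 227, 250 and 237 CPM in E112K, against 886, 822 and 982 CPM in WT (log2 change -1.91, edgeR adjusted p = 7.99e-12). SPAC1399.04c, a predicted uracil phosphoribosyltransferase gene, was at 20.7 ± 1.32 CPM in E112K, against 129 ± 10.1 CPM in WT. The uracil permease gene fur4 fell by 0.76 on the log2 scale, while ura1 of the synthesis pathway rose 1.44-fold. The synthesis gene ura4 had 0 counts in all 6 libraries, so no difference in it was seen between E112K and WT.

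Of 22 lipid genes 11 fell and 3 rose. The biotin transporter gene vht1 had 598, 576 and 583 CPM in E112K libraries, against 2210, 2083 and 2139 CPM in WT libraries, with no overlap (log2 change -1.87, edgeR adjusted p = 1.79e-13). Biotin is the cofactor of acetyl-CoA carboxylase, and the biotin synthase gene bio2 also fell, by 1.15 on the log2 scale. The acyl-CoA desaturase gene SPCC1281.06c fell by 0.66, the acyl-CoA ligase gene lcf2 by 1.20, the acyltransferase gene slc1 by 1.00 and the serine hydrolase-like gene SPAC22A12.06c by 1.90. The carboxylase gene cut6 was not called (log2 change -0.02), nor were the fatty acid synthase genes: fas1 stood at 1133 ± 57.6 CPM in E112K, against 1050 ± 46.1 CPM in WT (edgeR adjusted p = 0.0905) and fas2 at 1128 ± 48.7 and 1048 ± 43.5 CPM in these groups (adjusted p = 0.0936); without the third WT library fas1 was called, at 0.15 on the log2 scale. Of 25 sterol synthesis and Sre1 genes 16 fell and 4 rose. The sterol desaturase gene erg31 was at 187, 218 and 216 CPM in E112K, against 797, 813 and 822 CPM in WT. The squalene monooxygenase gene erg1 fell by 1.52 on the log2 scale, and those of the sterol-regulated factor sre1 and of its negative regulator ofd1 were lower by log2 changes of -0.94 and -0.85.

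**Figure D3:**
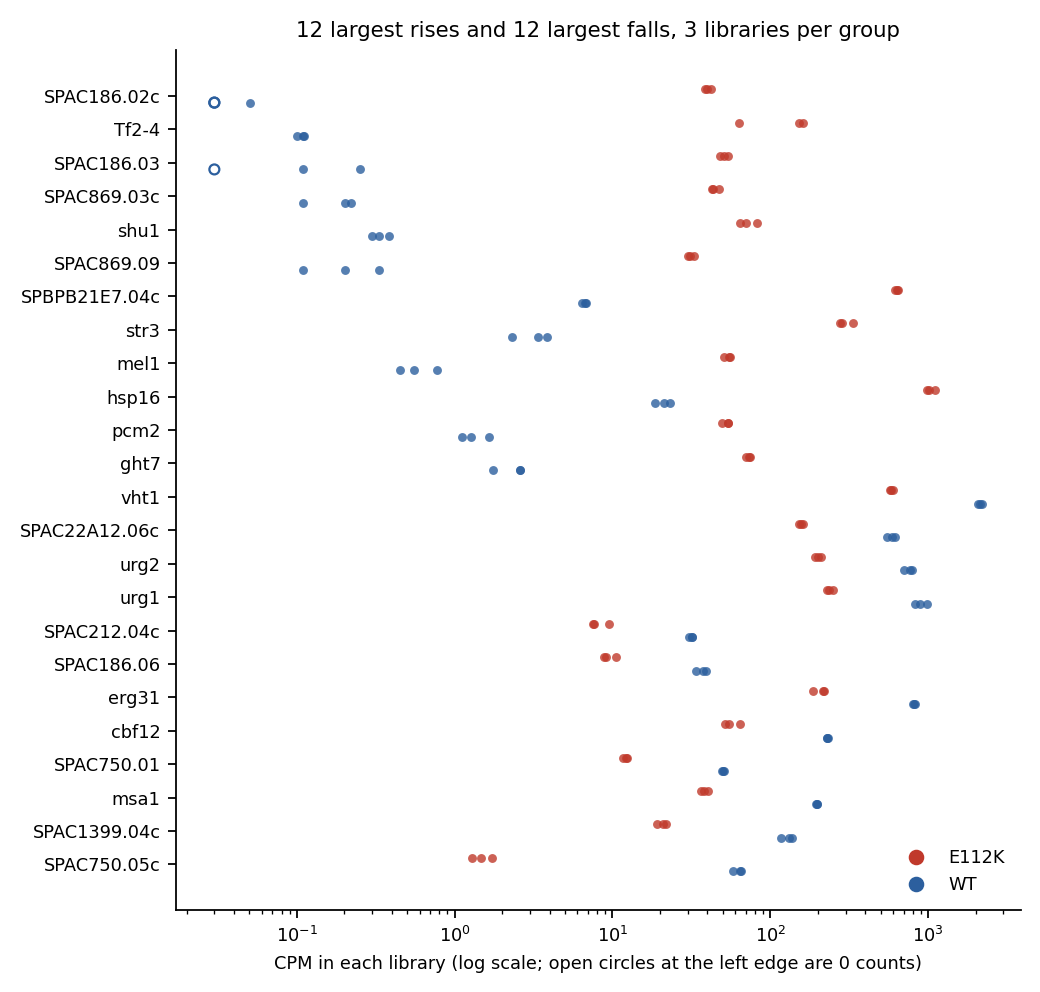
CPM in each E112K (red) and WT (blue) library, on a log scale, for the 12 largest rises (top) and 12 largest falls (bottom) among genes that passed the test, did not overlap another annotated gene and had 20 CPM or more in the higher group; open circles are libraries with 0 counts. In every gene shown the 3 libraries of one group lie apart from those of the other, and Tf2-4 has the widest E112K spread (63.7 to 160 CPM). Tf2-4 belongs to a repeat family, and how the counting shared reads among its copies was not tested.

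Glucan and chitin synthase genes had 10 of 11 higher and 0 lower, with a median of 1.46-fold. The alpha-glucan synthase gene ags1 had 671, 737 and 688 CPM in E112K, against 419, 440 and 462 CPM in WT, a rise of 1.59-fold (edgeR adjusted p = 3.24e-07). The beta-glucan synthase genes bgs1 and bgs4 rose 1.54- and 1.48-fold, and the chitin synthase homolog gene chs2 rose 1.75-fold. Glucan hydrolase and cell separation genes were mixed, with 8 of 22 higher and 9 lower. The endoglucanase gene eng1 fell by 1.10 on the log2 scale. Among flocculins, cell-surface glycoproteins of adhesion, and their regulators 12 of 16 rose and 3 fell. In this list pfl9 rose 14.1-fold, while pfl3 fell by 1.35 and the CSL family transcription factor gene cbf12 by 2.02 on the log2 scale. Of 9 phosphate response genes 7 rose and 0 fell, with tgp1 and gde1, which import and cleave glycerophosphodiesters, up 2.65- and 2.08-fold.

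Starved fission yeast mates and enters meiosis through the transcription factor Ste11 and the RNA-binding protein Mei2, which the kinase Pat1 holds back. Of 17 genes of meiotic entry 12 rose and 2 fell, with a median of 2.10-fold. Transcripts of mei2 were at 114, 109 and 111 CPM in E112K, against 14.5, 14.7 and 18.8 CPM in WT, a rise of 6.97-fold (edgeR adjusted p = 2.06e-12). Those of ste11 were at 169, 159 and 148 CPM in E112K, against 34.9, 36.5 and 36.5 CPM in WT (4.41-fold), and pat1 rose 2.10-fold. The Pat1 inhibitor gene mei3 stayed low at 3.24 ± 0.965 CPM in E112K, against 1.40 ± 0.16 CPM in WT (edgeR adjusted p = 0.00119). Later genes had smaller medians: 12 of 21 meiotic recombination genes rose and 1 fell, with a median of 1.45-fold, and 15 of 22 spore formation genes rose and 2 fell, with a median of 1.22-fold. The septin gene spn6, which overlaps another gene, rose 5.84-fold.

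Fission yeast has P and M mating types, each with its own pheromone and receptor genes. All 5 P-cell genes tested rose, from map1, the MADS-box factor gene, at 7.67-fold to the M-factor receptor gene map3 at 1.46-fold and the agglutinin gene map4 at 1.17-fold. The P-factor gene map2 had 691, 717 and 835 counts in E112K and 562, 479 and 496 counts in WT. The number of M-cell genes called is not given, because some reached the test only through their counts in E112K clr6-1. The M-factor gene mfm1 had 39, 41 and 48 counts in E112K and 15, 14 and 20 in WT. For mfm3 the counts were 15, 16 and 16 in E112K and 8, 4 and 9 in WT. In contrast mfm2 was lower, with 24, 29 and 23 counts in E112K and 48, 48 and 31 in WT. Of the other M-cell genes mam2 and mam3 rose 1.82- and 1.40-fold, mam1 fell (log2 change -0.20) and sxa2 was not called. The mating-type gene mat1-Mc had 0 counts in E112K and 0 to 2 in WT. In E112K clr6-1 libraries mat1-Mc averaged 75.2 ± 3.30 CPM and mfm2 322 ± 11.2 CPM. In the shared pheromone pathway 7 of 11 genes rose and 3 fell, with the MAP kinase gene spk1 up 6.26-fold and gpa1 up 1.77-fold.

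Some genes that changed at least 2-fold the same way lay next to each other, both near the chromosome ends and inside the arms. In the order of tested genes, 11 runs of 3 or more adjacent genes were all at least 2-fold higher, and they held 73 of the 367 such genes (19.9%). Of these runs 3 lay inside, among them that of the iron permease and oxidase genes fip1 and fio1 with hsp3105 and that of the trehalase gene ntp1. The longest had 13 genes, among them pcm2, mel1, pfl9, SPAC869.03c, SPAC186.02c and SPAC186.03, with 11 tested genes between it and the right end of chromosome I. Its summed level was 1211 CPM in E112K, against 169 CPM in WT. The predicted urea transporter gene SPAC869.03c had 42.7, 47.1 and 43.2 CPM in E112K, against 0.201, 0.11 and 0.221 CPM in WT. The predicted hydroxyacid dehydrogenase gene SPAC186.02c had 2129 counts in E112K and 1 in WT, a ratio of 2220 (95% exact interval 398 to 87741, counting error only). The 11 genes outside this run went mainly the other way: 7 fell, 3 rose and 1 was not called. The 5Tm family gene SPAC750.05c was at 1.46, 1.73 and 1.29 CPM in E112K, against 57.7, 64.5 and 65.7 CPM in WT, the steepest fall named here of a gene with counts in both groups (log2 change -5.39, edgeR adjusted p = 2.19e-13). How the counting shared reads among similar genes of such a family was not tested.

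Other runs held transport and sugar genes. A run of 12 near the left end of chromosome II included ght7, the transcription factor gene grt1 and the fatty acid amide hydrolase gene fah1, at 2.45- to 31.6-fold. On the left arm of chromosome I a run of 11 genes included dak2, ght3, shu1 and str3, so that members of the iron and hexose transport lists were neighbours in 1 block. The galactose pathway genes gal7, gal10 and gal1 lay in a run of 8 at the right end of chromosome II and rose 2.29-, 8.42- and 3.27-fold. Among the 30 outermost tested genes, 21 on the left and 16 on the right of chromosome I were at least 2-fold higher, as were 19 and 15 on chromosome II. On chromosome III, whose reference ends lie at the rDNA repeats, the numbers were 4 and 2. At least 2-fold falls numbered 6 at the right end of chromosome I and 0 or 1 at each other end. Over all tested genes 7.17% were at least 2-fold higher and 2.11% at least 2-fold lower.

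**Figure D4:**
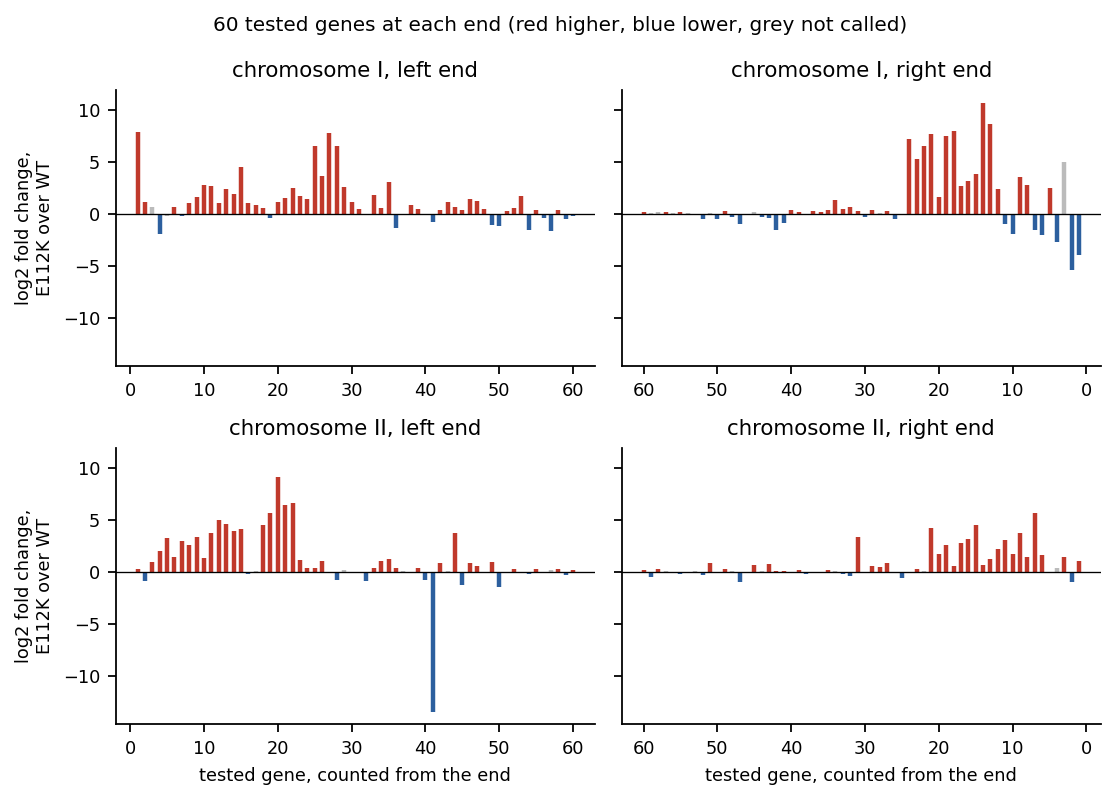
Log2 fold change of E112K over WT (y) for the 60 outermost tested genes at each end of chromosomes I and II, in order from the end (x), red where called higher, blue where called lower and grey where not called. Blocks of rises occupy each end, and at the right end of chromosome I the 11 outermost genes, 7 of them lower, lie outside the block of 13 that rose; the deepest bar, on the left of chromosome II, is SPBC1683.06c, which had 0 counts in E112K.

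Genes of chromatin complexes moved in both directions, as did all tested genes (37.6% higher, 38.9% lower). Several of the lists below lie near these shares. Of 9 genes of H2B ubiquitylation and its removal 3 rose and 3 fell. The ubiquitin ligase genes brl1 and brl2 rose 1.14- and 1.23-fold and ubp8 rose 1.28-fold. The falls were of sgf73, sus1 and shf1, with log2 changes of -0.48, -0.33 and -0.30. The H3K4 methyltransferase complex COMPASS had 5 of 8 lower and 1 higher. Clr6 complex genes had 9 of 18 lower and 7 higher, and laf2 fell by 1.23, laf1 by 0.96 and clr6 itself by 0.71 on the log2 scale. All 6 Chd and Fft remodeller genes rose, hrp3 most at 1.80-fold. The Tra-type pseudokinase genes of both acetyltransferase complexes rose, tra1 of SAGA 1.73-fold and tra2 of NuA4 2.01-fold. Their lists were mixed, with 7 of 18 SAGA genes higher and 6 lower, and 4 of 12 NuA4 and Mst2 genes higher and 6 lower. The HMG-box chaperone gene nhp6 had 320, 310 and 307 CPM in E112K, against 175, 168 and 172 CPM in WT (1.82-fold). Of 15 histone chaperone genes tested, 4 rose and 8 fell. RNA polymerase I and III genes had 8 of 19 higher and 7 lower, with the polymerase I subunit genes rpa49 and rpa34 up 2.93- and 2.20-fold. Of the kinetochore genes 9 of 34 rose and 16 fell. The DASH complex gene spc34 was at 17.4, 16.2 and 21.4 CPM in E112K, against 0, 1.21 and 2.60 CPM in WT (14.9-fold), and cnp3, the gene of the CENP-C homolog, fell by 1.30 on the log2 scale.

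Some genes had counts in only 1 of the groups. A rule set after seeing the data, 0 counts over 1 group and 100 or more over the other, found 8 such genes higher in E112K and 1 lower. Of the 8, 7 overlap another annotated gene. The largest were mug108, with 3610 counts over the E112K libraries and 0 over the WT libraries, at least 1255-fold higher with a floor of 3 counts over the group, and SPBC18A7.01, a predicted X-Pro dipeptidase gene, with 1048 and 0 counts in these groups. The DASH complex gene dam1, of the outer kinetochore, had 597 and 0 counts there, at least 208-fold higher. It overlaps csr101, which averaged 80.8 CPM in E112K, against 189 CPM in WT. The partner rga3 of mug108 averaged 73.9 CPM in E112K and 34 CPM in WT. SPBC18A7.02c, which overlaps SPBC18A7.01, averaged 165 and 207 CPM in these groups. SPAC4F10.17, the 1 of the 8 without such an overlap, had 516 counts in E112K and 0 in WT. The predicted uridine ribohydrolase gene SPBC1683.06c had 0 counts in E112K and 4344 in WT, at least 1388-fold lower, and 0 CPM in E112K clr6-1. It overlaps mal1, a maltase gene, which averaged 234 CPM in E112K, against 135 CPM in WT. How the counting shared reads between such partners was not tested.

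The strain with both mutations was set beside E112K for the genes with the largest changes. E112K clr6-1 and E112K differed for 78.8% of all tested genes at an adjusted p under 0.05. The comparison shares the E112K libraries on which these genes were chosen, so the counts below are a description. Of 22 genes with the largest rises or gains in E112K, 8 were higher in E112K clr6-1 than in E112K, 10 were lower and 4 were not called. Of 21 genes with the largest falls or losses, 10 were higher, 6 lower and 5 not called. Stress genes were among those lower: hsp16 averaged 294 ± 16.6 CPM in E112K clr6-1 and 1038 ± 59.6 CPM in E112K, and hsp9 averaged 528 ± 14.6 and 2372 ± 56.2 CPM in these groups. Transcripts of ubi4 averaged 534 ± 52.1 CPM in E112K clr6-1 and 2374 ± 44.3 CPM in E112K, with 756 ± 19.9 CPM in WT. Transcripts of ght5 averaged 2821 ± 143 CPM in E112K clr6-1, 839 ± 313 CPM in E112K and 3037 ± 47.5 CPM in WT, and those of met17 averaged 214 ± 28.5, 59.6 ± 5.47 and 207 ± 4.28 CPM in these groups. Other genes moved further from WT, as str3 did at 1006 ± 63.4 CPM and urg1 at 74.2 ± 1.87 CPM in E112K clr6-1. For hsp16, hsp9, ubi4, ght5, met17, str3 and urg1 the difference between the mutant strains passed the test (largest edgeR adjusted p = 1.17e-06, for ght5). The ura4 gene averaged 145 ± 1.93 CPM in E112K clr6-1 and 0 CPM in E112K, and mat1-Mc had counts in E112K clr6-1 and none in E112K, so effects of clr6-1 and of these differences cannot be told apart.

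**Figure D5:**
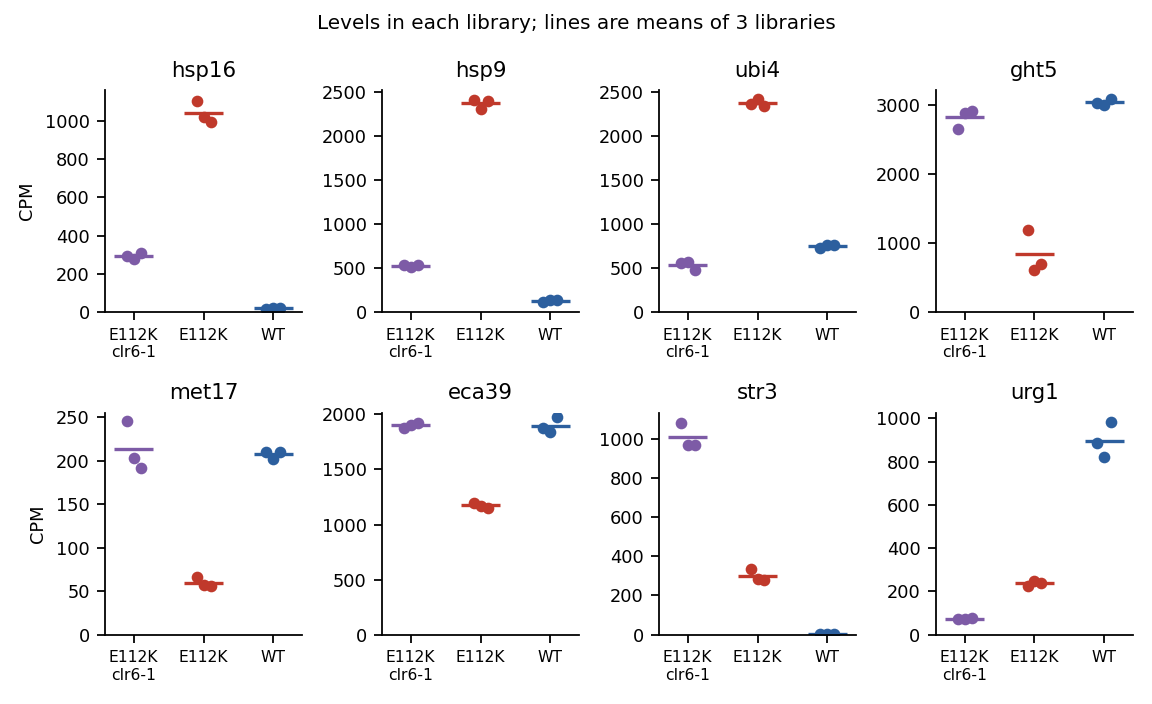
CPM in each library of E112K clr6-1, E112K and WT for 8 genes, with lines at the mean of 3 libraries and axes from 0. For ght5, met17 and eca39 the E112K clr6-1 libraries sit near WT, for hsp16, hsp9 and ubi4 they sit below E112K, and for str3 and urg1 they lie beyond E112K on the side away from WT.

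Among 312 process terms of the deposited annotation with 10 to 60 tested genes, the highest median was that of iron ion homeostasis (10 genes, 4.67-fold). Pheromone-dependent signal transduction (14 genes, log2 change 0.59), negative regulation of ascospore formation, which here holds wtf genes (21 genes, 1.45-fold), and cellular response to heat (18 genes, 1.39-fold) followed. The pheromone term holds the M-cell genes mfm1, mfm3 and mam2 among its largest changes. Of these mfm3 had only 8, 4 and 9 counts in the WT libraries, and how far the median rests on such genes was not tested. The lowest medians were those of arginine biosynthesis (11 genes, log2 change -0.67) and nucleoside metabolism (13 genes, -0.63). Cellular amino acid metabolism followed (14 genes, -0.47), then lysine biosynthesis (10 genes, -0.46). The terms are described by their medians and were not tested.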

How the data were processed

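RNA was selected with oligo(dT) and sequenced, per the labels' protocols. Tools named without a version in the submitters' processing notes are RSEM, StringTie, HISAT2, Bowtie2, fastp and DESeq2; counts may therefore be rounded estimates. For build, annotation and counting strand nothing is given in the sources used here. The deposited tables hold a whole-number count per gene and library, per the file headers, and the authors' FPKM, used here only to split genes by level. The authors' fold changes and p-values were not used. Of 5212 identifiers, 5109 matched the RefSeq reference, used for matching names, gene order, overlaps between genes and sequences.

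Counts of all 9 libraries were fitted with edgeR 4.0.16 in R 4.3.3 (TMM scaling, filterByExpr, quasi-likelihood test, Benjamini-Hochberg adjustment), and E112K was set against WT with a threshold of 0.05. On simulated counts of 5062 genes this comparison recovered 94% of 1.25-fold and 98% of 1.5-fold changes, and called 0.206% of unchanged genes. The data hold far more changed genes. In the simulation genes with the fewest WT counts were never changed, so these rates do not cover them. Its spread followed the trend with level and held no differences between genes of like level. The labels do not say that replicates were separate cultures, so p-values measure the spread between these libraries, which may be technical. No pair of replicates was within counting noise (chi-square per degree of freedom 2.96 to 9.7).

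The genes and lists were chosen with earlier results of these data known, and list members were corrected against the deposited descriptions. Genes were named if they encode H2A or H2B, were among the 12 largest rises or falls of those called with no overlap between groups and 20 CPM or more, were among the 10 largest gains or losses in CPM, or belonged to a described list (the 4 largest changes or by role). For the 12 largest changes, genes overlapping another annotated gene were left out; long non-coding RNAs were not counted as overlaps, since with them 91.2% of genes overlap another and without them 43.0% do, a choice made after seeing these shares. Lists are described by counts and medians and were not tested. Floors and intervals cover counting error only. Alternatives were RLE and upper-quartile scaling, library totals, DESeq2 1.42.0, other count filters, the 6 libraries alone, a replicate block and leaving out each library.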

Additional observations from a re-analysis of the deposited data

How the results depend on the processing

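The 3914 calls came to 3842 with the 6 libraries alone, 3819 with DESeq2, 3902 with RLE scaling, 3903 with upper-quartile scaling, 3897 with library totals, 3921 without a count filter and 3882 with at least 50 counts; leaving out 1 library gave 3749 to 3882. Genes at least 2-fold higher numbered 337 to 378 and lower 99 to 116 over all alternatives. The log2 fold change of htb1 was 1.60 to 1.64. Replicate numbers did not pair the libraries: same-numbered E112K and WT libraries had correlations of 0.0548, -0.0522 and -0.132, and not every library correlated best with its own number. With the replicate block 3876 genes were called and htb1 stood at 1.62. Another scaling moved the median of all genes to between -0.03 and 0.00. Of 5894 values of 421 named genes under alternatives, 5829 kept direction and side of the threshold, 16 lost the call, 31 gained it and 18 changed sign. The sign changes were of 6 genes that were not called. These were pap1 (0.00524 with RLE, 0.00476 with DESeq2; -0.0154 to 0.00446 without 1 library), pdc101 (0.00776 with RLE, 0.0023 with at least 50 counts, 0.00113 with the block, 0.00734 with DESeq2; -0.0432 to 0.077 without 1 library), gpm1 (0.00193 with RLE, 0.00151 with DESeq2; -0.0322 to 0.0284 without 1 library), hht3 (-0.0105 with library totals; -0.0201 to 0.0374 without 1 library), cut6 (-0.0654 to 0.000846 without 1 library) and ght4 (-0.00895 to 0.138 without 1 library), and the cause was not tested. Of genes named in the results, fas1 gained its call without the third WT library and ght4 without the third E112K library, and mfm3 lost it without the second WT library. Of 952 list medians under alternatives, 924 moved by less than the spread between replicates, and no list with a median over 0.1 in size changed sign. The largest move, 0.48, was of the M-cell list with the 6 libraries alone. Members that pass the count filter only through E112K clr6-1, such as mat1-Mc, drop out of that median. The choice of 4-fold in place of 2-fold gave TGACGT before 15.6% of promoters of genes higher and 52.6% for CCAAT. Depth limits what can be said of genes such as mfm3 and mei3, and 3 libraries per group limit all tests.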
